A study of Mus musculus with 6 samples.

Results

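The solute carriers are the largest group of membrane transport proteins in mammals, and the genes described here are the solute carrier genes expressed in cultured mouse peritoneal macrophages. They were taken as the genes with a symbol beginning in Slc and a digit that were listed once, had an estimate with status OK in all 6 libraries, and reached at least 2 FPKM in at least 2 of them. FPKM count the fragments of a transcript, scaled by its length and by the number of mapped fragments of the library. The glucose carrier gene Slc2a1 and the lactate carrier genes Slc16a1 and Slc16a3 were set aside. Of 355 such symbols, 351 were usable besides those 3 and Slc39a14, whose estimate had not status OK in every library. Of these, 192 stayed below the level required, 65 of them at 0 FPKM in all 6 libraries, and 159 genes remained among the 10164 genes of the series that passed the same filter. The level in the libraries thus chose the genes, and a gene with a high level in 1 condition alone could enter only through that condition. Of the 159, 119 reached 2 FPKM in every library and 40 were under it in at least 1. Only the naive libraries reached it for 7 genes, only the tolerized ones for Slc13a3, and only the LPS ones for 0 genes, so that a difference from the other conditions was given by the choice of these 8.

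The macrophages came from C57Bl/6 mice that were either miR-221/222 -/Y, lacking the X-linked microRNA pair (KO), or wildtype (WT), and all cells were kept in DMEM with 10% serum and antibiotics. Tolerized cells received 10 ng/ml lipopolysaccharide (LPS) for 15 h, were washed, rested for 2 h and were given 1000 ng/ml LPS for 4 h. LPS cells received 1000 ng/ml for 4 h with no earlier exposure, and naive cells were untreated. The 6 groups, KO tolerized, WT tolerized, KO LPS, WT LPS, KO naive and WT naive, are represented by 1 library each. The series title asks how miR-222 bears on the tolerized response. Its design text speaks of triplicates, and whether RNA of several cultures or mice was pooled is not stated. The genotype label names no promoter or recombinase that would limit the loss to macrophages, and no label gives the age of the mice.

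LPS is a component of the outer membrane of Gram-negative bacteria that macrophages sense through Toll-like receptor 4. Stimulated macrophages take up arginine for nitric oxide and polyamine synthesis, exchange glutamate for cystine to make glutathione, shift their use of glucose, and move metals across plasma membrane and phagosome as a part of host defence. Cells that have seen LPS before, called tolerized, answer a second dose with a changed set of genes. Solute carriers at the plasma membrane, in lysosomes, in the Golgi and in the inner mitochondrial membrane carry the substrates for these steps.

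Levels were compared on the log2(FPKM + 1) scale with limma, fitted over all 10164 genes with genotype and condition as additive terms, and p-values were adjusted by the Benjamini-Hochberg method over all of these genes. With 1 library per group, the error came from how far the changes between conditions differed between KO and WT, after the genotype difference shared by the conditions was taken out, with 2 residual degrees of freedom. The p-values therefore measure the spread among these 6 libraries only. The words rose and fell are used for adjusted p under 0.05. The FPKM sums were 639892 in KO tolerized, 671951 in WT tolerized, 604885 in KO LPS, 681618 in WT LPS, 635180 in KO naive and 573914 in WT naive cells, and the numbers of reads are not given. The half-width of the deposited confidence interval of a library had a median between 5.04% and 5.74% of the value for genes of at least 10 FPKM, and between 9.91% and 12.36% for genes of 2 to 10 FPKM. These intervals cover the estimate within a library and not the spread between cultures. The 7 macrophage markers all reached 2 FPKM. Their summed level was 10760 and 16159 FPKM in KO and WT tolerized, 17960 and 21238 FPKM in KO and WT LPS, and 39015 and 48603 FPKM in KO and WT naive cells, most of it from Lyz2. The single markers did not all follow the sum. Lyz2, Csf1r, Cd68 and Mertk were lower in both tolerized than in both naive libraries, and Emr1, Itgam and Fcgr1 were higher. All 6 B cell markers were present as well, with sums between 262.72 and 661.87 FPKM. All 6 were lower in KO than in WT naive cells and higher in KO than in WT tolerized cells. In LPS cells 2 were higher and 4 lower in KO. Of the mast cell markers 4 of 4 reached 2 FPKM in some library, with sums of 76.45 to 132.53 FPKM. So did 4 of 6 T and NK cell markers (7.12 to 19.85 FPKM), 2 of 4 fibroblast and mesothelial markers (0.67 to 5.29 FPKM) and 2 of 3 dendritic cell markers (2.09 to 4.03 FPKM). Of the neutrophil markers 2 of 5 reached 2 FPKM (sums of 2.21 to 9.57 FPKM), with Ngp at 0 throughout. Camp gave most of the neutrophil sum except in WT naive cells, where Camp had 0.738 and Retnlg 1.32 FPKM. The 6 markers of large peritoneal macrophages summed to 81.4 and 49.89 FPKM in KO and WT tolerized, 181.16 and 187.75 FPKM in KO and WT LPS, and 186.85 and 380.93 FPKM in KO and WT naive cells. In naive cells 5 of these 6 were lower in KO than in WT, from Icam2 with 22.6 FPKM in KO against 23.4 FPKM in WT to Vsig4 with 1.87 FPKM in KO against 158 FPKM in WT, while Timd4 was higher, with 108 FPKM in KO against 35.6 FPKM in WT. Fewer cells of a type and less RNA per cell cannot be told apart in such bulk libraries, and the part of other cell types in the values below was not tested.

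The microRNAs missing in KO cells are shown first, because the labels define the genotypes by them. RefSeq (GRCm38.p6) places mmu-miR-221-3p at chrX:19146307-19146329 and mmu-miR-222-3p at chrX:19146901-19146923, both on the minus strand. The mature sequences share the seed, bases 2 to 8, printed in capitals.
mmu-miR-221-3p: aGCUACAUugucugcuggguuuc
mmu-miR-222-3p: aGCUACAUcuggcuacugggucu
The letters that pair with this seed, ATGTAGC, were looked for in the longest annotated 3′ UTR of each gene (GENCODE M21). Of the 155 solute carrier genes with such a UTR, 23 held them (14.84%), against 972 of 8857 other genes tested (10.97%). The UTRs of those 23 were also longer, with a median of 3637 bases, against 1235.5 bases for the 132 without the letters. The windows below are from genes that differed at least 2-fold between KO and WT in a condition, with the matching letters in capitals (GRCm38, plus strand). They lie at chr8:40917765-40917791 and chr8:40920974-40921000 for the arginine transporter gene Slc7a2, chr2:102783354-102783380 and chr2:102790456-102790482 for the glutamate transporter gene Slc1a2, chr6:91757873-91757899 for the taurine transporter gene Slc6a6, and chr9:15739881-15739907 for the amino acid transporter gene Slc36a4.
Slc7a2 first match: caggttctttctATGTAGCcctggaac
Slc7a2 second match: gtgctgaaattcATGTAGCcagtaatg
Slc1a2 first match: caaggtctttttATGTAGCccagaatg
Slc1a2 second match: tggtctggtgtcATGTAGCatagtgcg
Slc6a6 match: cctttgacctccATGTAGCccaaggct
Slc36a4 match: gatttcctagccATGTAGCattcctta
The median difference of KO minus WT in the fit was 0.02 on the log2 scale for the 23 genes with the letters, and -0.09 for the 132 without. Among the other genes tested it was -0.06 with and -0.06 without. A match describes these letters and does not show binding.

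Most solute carrier genes were lower in LPS than in naive cells, as were most of all genes tested. The median solute carrier gene stood at 12 and 12.2 FPKM in KO and WT tolerized, 5.88 and 7.02 FPKM in KO and WT LPS, and 15.1 and 14.8 FPKM in KO and WT naive cells. In LPS against naive cells 95 of the 159 genes fell (59.7%) and 12 rose (7.55%), where 53.9% of all genes tested fell and 8.66% rose. In tolerized against LPS cells 66 rose (41.5%) and 2 fell (1.26%), where 36.1% of all genes tested rose and 4.27% fell. In tolerized against naive cells 44 fell (27.7%) and 10 rose (6.29%), where 19.3% of all genes tested fell and 7.31% rose. The 7 genes that reached the level in the naive libraries alone were all among the 95 and the 44 that fell. Slc13a3, which reached it in the tolerized libraries alone, was among the 66 and the 10 that rose. For these genes the direction was given by their choice, and the counts below, by family and with libraries removed, still hold them. The median differences of the solute carrier genes were -0.90, 0.63 and -0.22 in these 3 comparisons on the log2 scale, beside -0.75, 0.51 and -0.21 for all genes tested. In LPS against naive cells 59 of the 119 genes with 2 FPKM in every library fell, and 36 of the 40 others. In tolerized against LPS cells 42 of the 119 and 24 of the 40 rose. In tolerized against naive cells 24 of the 119 and 20 of the 40 fell. The level filter thus bears on the comparison with all genes tested, whose shares were not split by level. The difference between these shares was not tested, and the lower levels are read relative to the shift of all genes.

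Since FPKM are shares of a library, the values were also rescaled so that the median gene did not differ between libraries. Then 50 solute carrier genes fell and 29 rose in LPS against naive cells, beside 24% and 22.4% of all genes tested. In tolerized against LPS cells 15 rose and 6 fell, beside 8.49% and 9.04%. In tolerized against naive cells 20 fell and 11 rose, beside 11% and 9.14%. All 12 genes that rose with LPS as deposited also rose after rescaling, and 50 of the 95 that fell still fell.

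Removing single libraries touched the 3 comparisons unequally. Of the calls in LPS against naive cells, 8 of 12 higher and 65 of 95 lower ones were kept whichever library was removed. In tolerized against naive cells 5 of 10 higher and 12 of 44 lower ones were kept. Only 17 lower calls were left without WT tolerized, 22 without KO tolerized, 24 without KO naive and 22 without WT naive cells. The higher calls numbered 17 without KO naive and 5 without WT naive cells. In tolerized against LPS cells 3 of the 66 higher ones were kept, those of Slc1a2, Slc36a1 and Slc38a10, and the count was 4 without KO LPS, 24 without WT LPS, 29 without KO tolerized and 36 without WT tolerized. The 2 lower ones, Slc25a22 and Slc2a6, both lost the call without KO LPS.

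**Figure D1:**
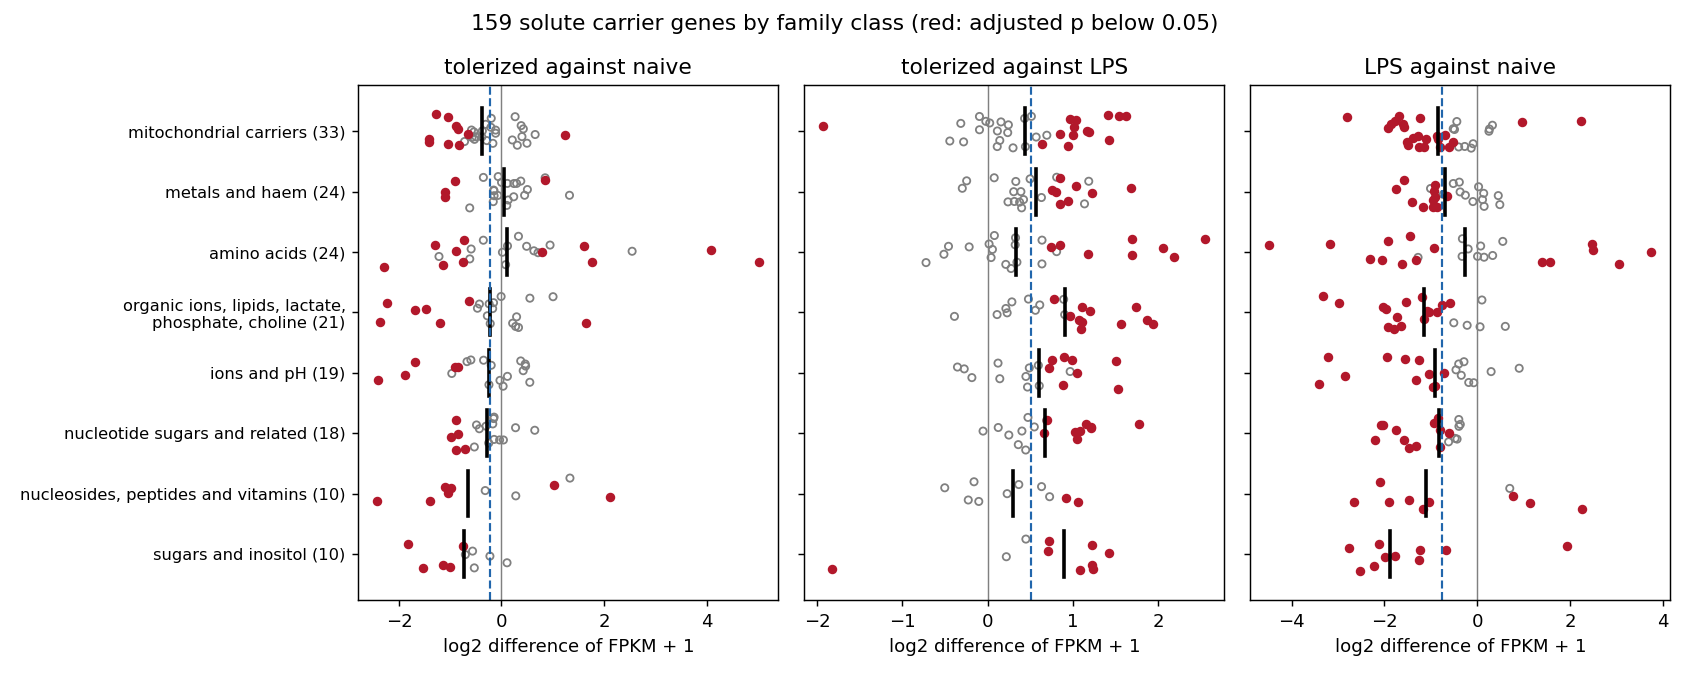
Log2 differences of FPKM + 1 for the 159 solute carrier genes, grouped by family (number of genes in parentheses), in tolerized against naive, tolerized against LPS and LPS against naive cells. Filled red points passed the limma test, open points did not, black bars are the medians of a family group, the grey line is 0 and the dashed blue line is the median of all 10164 genes; in LPS against naive cells most groups lie near the blue line, with a tail of amino acid transporters to the right.

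The counts by family follow, with no test of a difference between families. They stand beside 53.9% of all genes tested that fell and 8.66% that rose in LPS against naive cells as deposited. After rescaling the shares of all genes were 24% and 22.4%. Of the 24 amino acid transporter genes 6 rose and 9 fell in LPS against naive cells, and of the 10 genes for nucleoside, peptide and vitamin carriers 3 rose and 6 fell. Among the 10 genes of the sugar families 9 fell and 1 rose. The groups follow family numbers only, and the 9 include the pseudogene symbol Slc2a4rg-ps and Slc5a6, whose product carries vitamins. Both also fell after rescaling. Slc5a6 and Slc2a8, also among the 9, passed the level filter through the naive libraries alone. Of the 33 mitochondrial carrier genes 21 fell and 2 rose, of the 24 metal and haem carrier genes 11 fell, of the 18 nucleotide sugar carrier genes 12 fell, of the 19 ion and pH genes 11 fell, and of the 21 genes for organic ions, lipids, lactate, phosphate and choline 16 fell, with no rise in the last 4 of these groups as deposited. After rescaling, which sets the shift of all genes to about 0, amino acid genes had 9 rises and 7 falls, nucleoside, peptide and vitamin genes 3 and 4, sugar genes 1 and 8, and mitochondrial carrier genes 6 and 10. Metal and haem genes had 5 rises and 1 fall, nucleotide sugar genes 0 and 6, ion and pH genes 3 and 5, and genes for organic ions and the like 2 and 9. The group medians were -1.89 for sugars, -1.14 for organic ions, -1.11 for nucleosides, peptides and vitamins, -0.92 for ions, -0.84 for mitochondrial carriers, -0.82 for nucleotide sugars, -0.69 for metals and -0.26 for amino acids. After rescaling the medians for metals and amino acids turned positive, at 0.08 and 0.55. A few symbols of the set do not encode transporters, such as Slc2a4rg-ps. Others are Slc9a3r1 and Slc9a3r2, whose proteins are scaffolds that bind ion exchangers. Slc9a3r2 had 1.79 and 2.15 FPKM in KO and WT tolerized, 0.402 and 0.596 FPKM in KO and WT LPS, and 12.8 and 17.2 FPKM in KO and WT naive cells. It fell by 3.40 ± 0.18 in LPS (limma, adjusted p = 0.00042) and by 2.42 ± 0.18 in tolerized cells against naive (adjusted p = 0.0027), and passed the level filter mainly through the naive libraries.

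Slc7a2, which encodes an arginine transporter that feeds nitric oxide synthesis in macrophages (mm9, chr8:41947721-42007424), reached the highest level of all solute carrier genes in tolerized and LPS cells. It had 1050 and 1267 FPKM in KO and WT tolerized, 973 and 869 FPKM in KO and WT LPS, and 159 and 28.1 FPKM in KO and WT naive cells. Both naive libraries lay far below the 4 exposed ones and WT naive was far below KO naive. The gene rose by 3.76 ± 0.66 on the log2 scale in LPS against naive (limma, SE, adjusted p = 0.0039) and by 4.08 ± 0.66 in tolerized against naive cells (adjusted p = 0.0097). With single libraries removed these differences ran between 2.50 and 5.01 and between 2.83 and 5.34, and both stayed called. Tolerized and LPS cells differed by 0.33 ± 0.66 (limma, adjusted p = 0.71). The second arginine transporter gene, Slc7a1, followed at a far lower level, with 13.9 and 16.1 FPKM in KO and WT tolerized, 11.9 and 17.7 FPKM in KO and WT LPS, and 4.22 and 4.20 FPKM in KO and WT naive cells. It rose by 1.57 ± 0.21 in LPS (limma, adjusted p = 0.0017) and by 1.61 ± 0.21 in tolerized cells against naive (adjusted p = 0.0061), with no overlap between naive and the other libraries.

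Slc7a11 and Slc3a2 encode the light and heavy chain of the cystine-glutamate exchanger, and Slc3a2 is also the partner of Slc7a5, a carrier of large neutral amino acids. Slc7a11 (mm9, chr3:50168858-50247535) had 388 and 537 FPKM in KO and WT tolerized, 749 and 567 FPKM in KO and WT LPS, and 232 and 25.3 FPKM in KO and WT naive cells. The LPS libraries were highest and the naive ones lowest, and WT naive stood far under KO naive. It rose by 3.06 ± 0.81 in LPS against naive cells (limma, adjusted p = 0.018), a call lost without either LPS library, at 1.47 without WT naive and 4.65 without KO naive, and differed by 2.55 ± 0.81 in tolerized against naive cells (adjusted p = 0.066), between 0.96 and 4.14 with single libraries removed. Slc3a2 had 289 and 439 FPKM in KO and WT tolerized, 517 and 465 FPKM in KO and WT LPS, and 295 and 115 FPKM in KO and WT naive cells. Here KO naive lay slightly above KO tolerized, so that tolerized and naive libraries overlapped. It rose by 1.41 ± 0.48 in LPS against naive cells (limma, adjusted p = 0.043), a call lost without KO LPS, WT LPS or WT naive, at 0.62 without WT naive and 2.19 without KO naive. Slc7a5 (mm9, chr8:124405046-124431586) had 17.3 and 14.8 FPKM in KO and WT tolerized, 22.6 and 32.4 FPKM in KO and WT LPS, and 3.53 and 4.47 FPKM in KO and WT naive cells. All 3 conditions were separate for this gene, which rose by 2.50 ± 0.24 in LPS (limma, adjusted p = 0.00073) and by 1.77 ± 0.24 in tolerized cells (adjusted p = 0.0061), each against naive.

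Slc1a2, which encodes a high-affinity glutamate transporter best known from astrocytes (mm9, chr2:102498840-102630941), was the solute carrier gene with the largest difference between tolerized and naive cells. It had 31.4 and 42.9 FPKM in KO and WT tolerized, 11.02 and 2.45 FPKM in KO and WT LPS, and 0.277 and 0.049 FPKM in KO and WT naive cells. The conditions did not overlap, with tolerized highest and naive near 0. It rose by 5.03 ± 0.50 in tolerized against naive (limma, adjusted p = 0.0036), by 2.55 ± 0.50 in tolerized against LPS (adjusted p = 0.014) and by 2.47 ± 0.50 in LPS against naive cells (adjusted p = 0.0066). The second of these had adjusted p = 0.054 after rescaling, with a difference of 2.02. With single libraries removed the 3 differences ran between 4.29 and 5.77, 1.61 and 3.49, and 1.53 and 3.42. Because of the pseudocount of 1 these values understate the fold for naive cells.

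**Figure D2:**
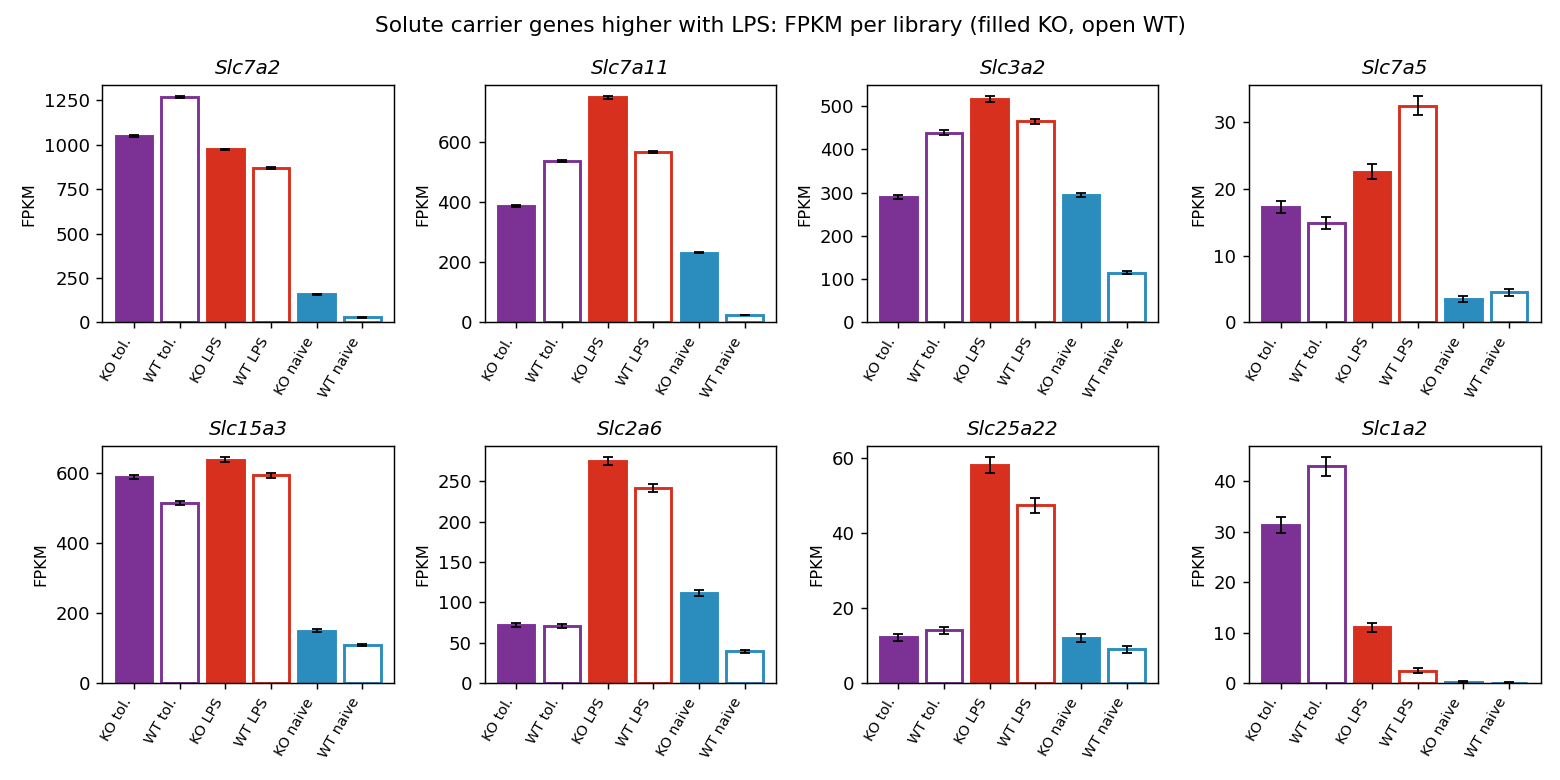
FPKM in each of the 6 libraries for 8 solute carrier genes that rose in LPS against naive cells, drawn as bars with the deposited confidence interval of each estimate; filled bars are KO, open bars WT, tol. means tolerized. Slc7a2 and Slc15a3 stay as high in tolerized as in LPS cells, Slc2a6 and Slc25a22 are highest in LPS cells, Slc1a2 is highest in tolerized cells, and WT naive lies far below KO naive for Slc7a2, Slc7a11 and Slc2a6.

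Other amino acid transporters moved the opposite way. Slc43a2, whose product moves branched-chain and other large neutral amino acids (mm9, chr11:75345196-75391074), had 21.2 and 11.3 FPKM in KO and WT tolerized, 2.53 and 2.77 FPKM in KO and WT LPS, and 76.1 and 84.8 FPKM in KO and WT naive cells. The 3 conditions were separate, with tolerized cells between the others. It fell by 4.48 ± 0.29 in LPS against naive cells (limma, adjusted p = 0.00045), the largest decrease of the set, and by 2.30 ± 0.29 in tolerized against naive cells (adjusted p = 0.0056). Slc36a1, for a proton-coupled amino acid transporter of lysosomes (mm9, chr11:55017842-55049832), had 11.2 and 10.6 FPKM in KO and WT tolerized, 1.40 and 2.44 FPKM in KO and WT LPS, and 24.5 and 25.6 FPKM in KO and WT naive cells. It fell by 3.18 ± 0.22 in LPS against naive cells (limma, adjusted p = 0.00049) and rose by 2.05 ± 0.22 in tolerized against LPS cells (adjusted p = 0.0079), with separate groups. The 3 conditions kept the same order for Slc38a7, a lysosomal glutamine carrier gene, with 14.5 and 14.5 FPKM in KO and WT tolerized, 5.66 and 6.12 FPKM in KO and WT LPS, and 25.1 and 25.4 FPKM in KO and WT naive cells. Slc38a9, whose product reports lysosomal arginine to the kinase complex mTORC1, fell by 1.62 ± 0.21 in LPS against naive cells, being at 1.06 and 0.954 FPKM in KO and WT LPS and at 4.38 and 6.10 FPKM in KO and WT naive cells (limma, adjusted p = 0.0014).

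Among peptide, nucleoside and vitamin carriers the highest level belonged to Slc15a3, for an endolysosomal carrier of histidine and small peptides (mm9, chr19:10917034-10932405). It had 590 and 516 FPKM in KO and WT tolerized, 639 and 594 FPKM in KO and WT LPS, and 150 and 108 FPKM in KO and WT naive cells. The exposed libraries all lay above both naive ones. It rose by 2.27 ± 0.28 in LPS (limma, adjusted p = 0.0013) and by 2.11 ± 0.28 in tolerized cells against naive (adjusted p = 0.006). The related Slc15a4, whose protein is needed for signalling of endosomal Toll-like receptors, ran the other way, with 20.8 and 17.8 FPKM in KO and WT tolerized, 7.46 and 10.2 FPKM in KO and WT LPS, and 35.8 and 45.9 FPKM in KO and WT naive cells. It fell by 2.09 ± 0.23 in LPS against naive cells (limma, adjusted p = 0.00099). The vitamin C transporter gene Slc23a2 had 48.8 and 48.01 FPKM in KO and WT tolerized, 48.9 and 55.5 FPKM in KO and WT LPS, and 22.2 and 24.3 FPKM in KO and WT naive cells, and rose by 1.13 ± 0.20 in LPS against naive cells (limma, adjusted p = 0.004). Both equilibrative nucleoside transporter genes fell in that comparison. Slc29a3, for the lysosomal one, had 10.4 and 7.20 FPKM in KO and WT LPS and 34.9 and 35.3 FPKM in KO and WT naive cells, a decrease of 1.90 ± 0.21 (limma, adjusted p = 0.001). Slc29a1, for the plasma membrane one, had 8.91 and 14.1 FPKM in KO and WT LPS and 28.9 and 24.4 FPKM in KO and WT naive cells. Its fall by 1.17 ± 0.26 (limma, adjusted p = 0.0088) lost the call without KO LPS, and it had adjusted p = 0.26 after rescaling. Slc46a3, for a lysosomal solute carrier, had 0.832 and 0.698 FPKM in KO and WT tolerized, 0.516 and 0.494 FPKM in KO and WT LPS, and 3.10 and 20.7 FPKM in KO and WT naive cells. WT naive stood far above all other libraries. The gene passed the level filter through the naive libraries alone, so its lower level elsewhere was given by that choice.

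Of the sugar carriers Slc2a6, a facilitative hexose transporter gene of the lysosomal membrane (mm9, chr2:26876885-26883518), was the exception to the general decrease. It had 72.5 and 71.3 FPKM in KO and WT tolerized, 275 and 242 FPKM in KO and WT LPS, and 112 and 39.6 FPKM in KO and WT naive cells. The LPS libraries stood clear of all others, and the tolerized values lay between the 2 naive ones. It rose by 1.94 ± 0.39 in LPS against naive (limma, adjusted p = 0.0066), at 1.25 without WT naive and 2.62 without KO naive, and fell by 1.83 ± 0.39 in tolerized against LPS cells (adjusted p = 0.017), a call lost without KO tolerized, KO LPS or WT LPS. Slc37a2, for a sugar phosphate antiporter of the endoplasmic reticulum, had 8.04 and 5.36 FPKM in KO and WT tolerized, 2.12 and 2.37 FPKM in KO and WT LPS, and 15.1 and 29.1 FPKM in KO and WT naive cells. It fell by 2.76 ± 0.34 in LPS against naive cells (limma, adjusted p = 0.0013). Slc2a8, another intracellular hexose carrier gene, was at 0.918 and 1.26 FPKM in KO and WT tolerized, 0.220 and 0.333 FPKM in KO and WT LPS, and 5.77 and 6.94 FPKM in KO and WT naive cells, and passed the level filter through the naive libraries alone.

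Mitochondrial carriers form the largest family of the set. Slc25a22, for a carrier of glutamate into mitochondria (mm9, chr7:148615648-148623773), had 12.2 and 14.1 FPKM in KO and WT tolerized, 58.2 and 47.4 FPKM in KO and WT LPS, and 12 and 8.97 FPKM in KO and WT naive cells. Its LPS libraries were well above the other 4. Tolerized exceeded naive by little in KO, and by more in WT, with 14.1 against 8.97 FPKM. It rose by 2.23 ± 0.22 in LPS against naive (limma, adjusted p = 0.00079) and fell by 1.93 ± 0.22 in tolerized against LPS cells (adjusted p = 0.0081), the second call being lost without KO LPS. Slc25a45, a less studied member, had 10.1 and 9.16 FPKM in KO and WT tolerized, 2.45 and 2.85 FPKM in KO and WT LPS, and 22.01 and 27.4 FPKM in KO and WT naive cells, and fell by 2.81 ± 0.20 in LPS against naive cells (limma, adjusted p = 0.00051). The phosphate carrier gene Slc25a3 and the ADP/ATP carrier gene Slc25a5, the highest of the family, ran from 133 to 245 FPKM and from 137 to 285 FPKM over the 6 libraries and passed no test. Reads of Slc25a5 may be shared with near-identical copies, which makes its level uncertain.

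Genes for iron and copper carriers were among the most highly expressed of the set. Slc11a1, which encodes the phagosomal metal transporter NRAMP1, had 354 and 352 FPKM in KO and WT tolerized, 205 and 163 FPKM in KO and WT LPS, and 385 and 323 FPKM in KO and WT naive cells. The LPS libraries lay below the others. It fell by 0.94 ± 0.26 in LPS against naive cells (limma, adjusted p = 0.022), lost the call without either LPS library, and differed by -0.09 after rescaling (adjusted p = 0.78). Slc31a2 and Slc31a1, for copper transporters, were highest in both tolerized libraries. Slc31a2 had 268 and 258 FPKM in KO and WT tolerized, 93.9 and 141 FPKM in KO and WT LPS, and 154 and 70.8 FPKM in KO and WT naive cells, and differed by 1.33 ± 0.42 in tolerized against naive cells (limma, adjusted p = 0.064). This difference was 0.64 and 2.01 with 1 or the other naive library removed, and 1.57 with adjusted p = 0.042 after rescaling. Slc31a1 had 99.7 and 105 FPKM in KO and WT tolerized, 37.4 and 50.2 FPKM in KO and WT LPS, and 79.4 and 39.7 FPKM in KO and WT naive cells. It rose by 1.22 ± 0.36 in tolerized against LPS cells (limma, adjusted p = 0.04), a call lost without any one tolerized or LPS library. After rescaling this difference was 0.63 (limma, adjusted p = 0.23). Slc40a1, for the iron exporter ferroportin, had 7.17 and 5.37 FPKM in KO and WT tolerized, 4.67 and 4.29 FPKM in KO and WT LPS, and 2.84 and 3.15 FPKM in KO and WT naive cells. It rose by 0.85 ± 0.20 in tolerized against naive cells (limma, adjusted p = 0.029), and each of the 6 removals ended that call.

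Carriers of ions, lipids and organic acids made up the rest of the large decreases. Slc27a1, for a fatty acid transport protein, had 6.88 and 3.42 FPKM in KO and WT tolerized, 1.89 and 1.61 FPKM in KO and WT LPS, and 26.4 and 26.8 FPKM in KO and WT naive cells. Slc17a5, for the lysosomal sialic acid exporter sialin, had 2.39 and 3.20 FPKM in KO and WT tolerized, 1.63 and 1.32 FPKM in KO and WT LPS, and 13.6 and 25.2 FPKM in KO and WT naive cells. Slc24a6, for a sodium-calcium exchanger of mitochondria, had 17.9 and 9.58 FPKM in KO and WT tolerized, 3.81 and 4.01 FPKM in KO and WT LPS, and 37.95 and 51.6 FPKM in KO and WT naive cells. In each of these genes naive was highest and LPS lowest without overlap. They fell by 3.33 ± 0.26, 2.98 ± 0.28 and 3.20 ± 0.32 in LPS against naive cells (limma, adjusted p = 0.00054, 0.00069 and 0.00079). The sulfate and chloride carrier gene Slc26a11 fell by 2.85 ± 0.35 (limma, adjusted p = 0.0012), with 0.626 and 0.503 FPKM in KO and WT LPS and 6.76 and 15.4 FPKM in KO and WT naive cells, and the difference was -2.22 without WT naive and -3.48 without KO naive. Slc33a1, for the acetyl-CoA carrier of the endoplasmic reticulum, fell by 1.64 ± 0.22 in LPS against naive cells (limma, adjusted p = 0.0015), at 17.6 and 24.97 FPKM in KO and WT tolerized, 3.95 and 5.63 FPKM in KO and WT LPS, and 17.1 and 16.7 FPKM in KO and WT naive cells. It rose by 1.94 ± 0.22 in tolerized against LPS cells (limma, adjusted p = 0.0079), a call lost without KO LPS. Slc35c1, the Golgi GDP-fucose carrier gene, had 18.02 and 21.6 FPKM in KO and WT tolerized, 4.32 and 5.94 FPKM in KO and WT LPS, and 29.9 and 20.1 FPKM in KO and WT naive cells, and fell by 2.07 ± 0.28 in LPS against naive cells (limma, adjusted p = 0.0016).

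**Figure D3:**
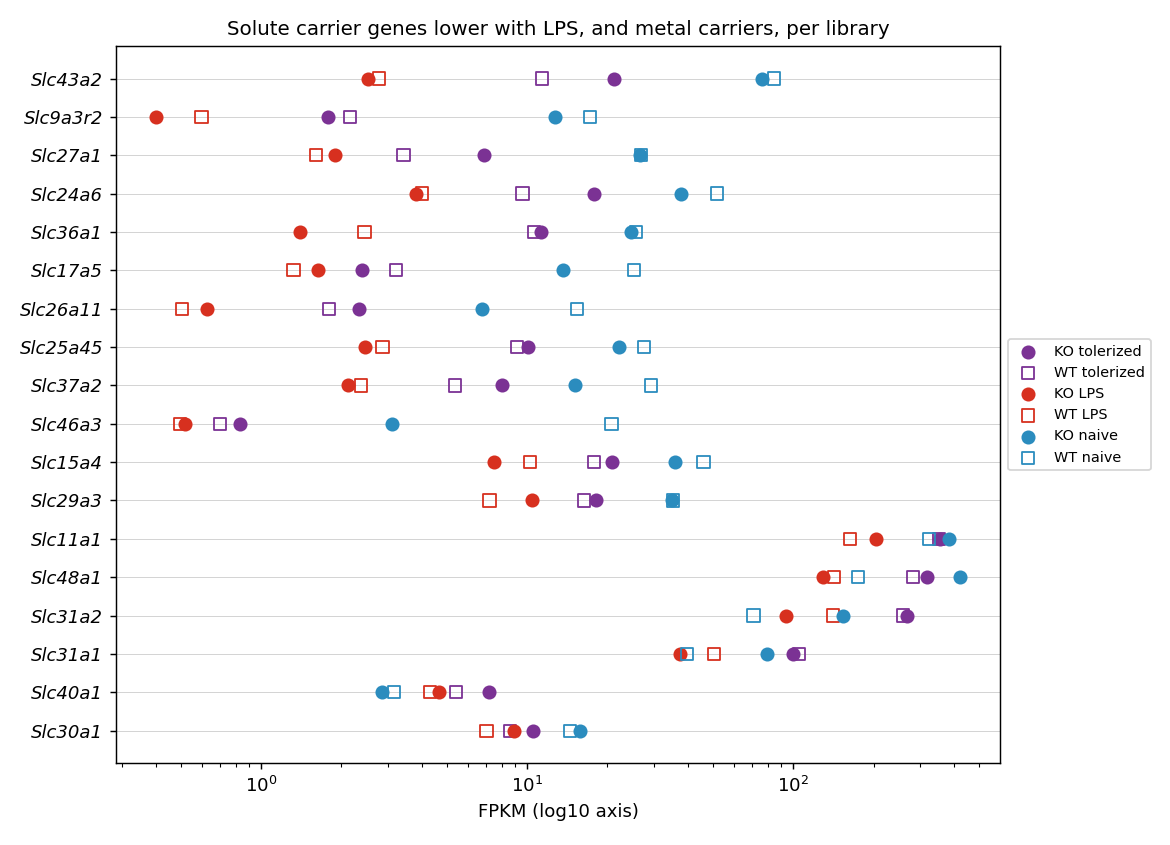
FPKM per library on a log10 axis for 18 solute carrier genes, of which the upper 13 fell in LPS against naive cells (Slc46a3 entered the set through the naive libraries alone) and the lower 5 are further metal and haem carriers and the zinc exporter gene Slc30a1; filled circles are KO and open squares WT. In the upper 12 rows the LPS libraries lie at the left, the tolerized ones between and the naive ones at the right; Slc31a2 and Slc31a1 have their highest values in tolerized cells.

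The order of conditions can also be read without a test. Both LPS libraries lay below the other 4 in 92 of the 159 genes (57.9%), beside 55.3% of all genes tested. They lay above them in 10 (6.29%), beside 6.37% of all. Both naive libraries lay above the other 4 in 85 genes (53.5%), beside 45.8% of all, and below them in 14 (8.81%), beside 10.0% of all. The 85 include the 7 genes that entered the set through the naive libraries alone. Both tolerized libraries lay above the other 4 in 25 genes (15.7%), beside 12.4% of all. Among the 25 were Slc1a2, Slc31a1, Slc31a2 and Slc40a1, and Slc13a3, which entered the set through the tolerized libraries alone. Both tolerized libraries lay below the others in 1 gene (0.629%), beside 3.78% of all.

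Promoters are shown for 4 genes chosen by motif, those of the 2 largest rises whose promoter held the letters bound by nuclear factor kappa B (kB) and of the 2 largest falls in LPS against naive cells whose promoter held an E-box, the letters of basic helix-loop-helix factors. Genes whose highest library lay under 10 FPKM were passed over. RefSeq (GRCm38.p6) listed 122 of the 159 genes. For each gene only the first start listed was used, with 250 bases before and 50 after it. Slc7a1 had 2 starts listed, and the promoter of the other one is not shown. On both strands 5 motifs were searched: kB (GGGA, any 4 bases, CC), AP-1 (TGANTCA), E-box (CACGTG), the antioxidant response element ARE (TGACNNNGC) and the interferon element ISRE (GAAA, any 2 bases, GAAA). Of 9 listed genes that rose in LPS against naive cells, 44.44% held kB, 11.11% AP-1, 22.22% ARE and none E-box or ISRE. Of 74 that fell, 22.97% held kB, 8.11% AP-1, 18.92% ARE, 18.92% E-box and 1.35% ISRE. Among all 7388 listed genes tested the shares were 26.11% for kB, 5.06% for AP-1, 15.58% for ARE, 11% for E-box and 3.29% for ISRE. Over all 27025 listed genes, with 1 promoter each, they were 20.46%, 7.93%, 12.47%, 7.24% and 3.49%. The promoters lie at chr2:27027949-27028248 on the minus strand for Slc2a6, chr5:148399855-148400154 on the minus strand for Slc7a1, chr11:55204090-55204389 on the plus strand for Slc36a1 and chr8:95853442-95853741 on the minus strand for Slc38a7, with motif letters in capitals. Slc2a6 has 1 kB match. Slc7a1 has AP-1, kB and ARE, in this order. Slc36a1 has 2 E-boxes, the second overlapped by ARE, and Slc38a7 has AP-1 and then an E-box.
Slc2a6: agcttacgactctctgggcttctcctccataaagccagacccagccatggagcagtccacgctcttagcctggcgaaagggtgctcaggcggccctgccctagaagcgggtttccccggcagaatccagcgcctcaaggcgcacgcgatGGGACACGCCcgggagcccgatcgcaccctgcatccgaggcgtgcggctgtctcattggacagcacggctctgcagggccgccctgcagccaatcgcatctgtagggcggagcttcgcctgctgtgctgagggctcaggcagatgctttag
Slc7a1: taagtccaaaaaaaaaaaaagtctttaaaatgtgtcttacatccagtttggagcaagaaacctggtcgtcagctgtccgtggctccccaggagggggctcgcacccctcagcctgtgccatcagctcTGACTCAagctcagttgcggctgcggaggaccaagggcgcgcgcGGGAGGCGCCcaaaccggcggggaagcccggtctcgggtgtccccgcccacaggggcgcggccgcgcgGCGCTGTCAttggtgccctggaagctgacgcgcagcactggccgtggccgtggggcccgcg
Slc36a1: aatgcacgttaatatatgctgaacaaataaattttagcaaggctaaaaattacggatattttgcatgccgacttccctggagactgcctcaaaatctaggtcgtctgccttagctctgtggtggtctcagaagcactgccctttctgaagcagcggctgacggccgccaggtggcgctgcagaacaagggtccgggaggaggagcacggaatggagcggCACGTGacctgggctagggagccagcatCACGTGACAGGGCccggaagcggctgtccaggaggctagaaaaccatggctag
Slc38a7: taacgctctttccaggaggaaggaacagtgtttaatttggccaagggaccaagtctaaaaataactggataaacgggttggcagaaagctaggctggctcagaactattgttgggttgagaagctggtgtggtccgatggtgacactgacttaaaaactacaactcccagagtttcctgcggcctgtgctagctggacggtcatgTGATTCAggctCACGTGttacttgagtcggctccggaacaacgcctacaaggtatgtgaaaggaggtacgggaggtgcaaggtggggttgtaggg
A match describes the letters in this window only.

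Loss of miR-221/222 was tested as a difference shared by the 3 conditions, with the disagreement between the conditions as its error. None of the 159 genes passed (limma, lowest adjusted p = 0.63 for the creatine transporter gene Slc6a8), as 0.0% of all genes tested were called higher and 0.00984% lower. At an unadjusted p under 0.05 there were 5, beside 6.99% of all genes tested, and 4 after rescaling, beside 7.14%. KO lay above WT in all 3 conditions for 11 genes (6.92%), beside 10.8% of all genes tested, and below it for 28 (17.6%), beside 18.2%. After rescaling these were 17 genes above (10.7%), beside 13.7% of all genes tested, and 22 below (13.8%), beside 14%. With the deposited intervals apart in every condition there were 3 above, beside 4.04% of all genes tested, and 1 below, beside 3.23%. The 3 were Slc6a8, Slc15a3 and the scaffold gene Slc9a3r1, and the 1 was Slc30a5, which encodes a zinc transporter of the secretory pathway. Slc6a8 had 23.7 FPKM in KO and 14.5 in WT tolerized, 10.8 in KO and 9.09 in WT LPS, and 34.8 in KO and 23.4 in WT naive cells. KO minus WT was 0.48 ± 0.17 on the log2 scale (SE).

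Larger gaps between the genotypes stood in single conditions, where 1 library per group allows no test. In naive cells KO was at least 2-fold above WT in 11 solute carrier genes and below it in 3, beside 3.96% and 2.61% of all genes tested. In LPS cells there were 4 and 2, beside 3.5% and 2.59%, and with a pseudocount of 0.1 they were 7 and 7, beside 5.13% and 4.6%. In tolerized cells there were 2 and 0, beside 1.7% and 0.758%. The 11 in naive cells included the arginine and cystine carrier genes Slc7a2, Slc7a11 and Slc3a2 described above, Slc2a6, the glycine transporter gene Slc6a9 with 17.7 FPKM in KO against 1.67 FPKM in WT, the betaine transporter gene Slc6a12 with 20.2 and 2.32 FPKM in KO and WT, and the zinc transporter gene Slc39a4 with 17.2 and 4.44 FPKM in KO and WT. The haem carrier gene Slc48a1 had 424 FPKM in KO against 175 FPKM in WT naive cells, and Slc31a2 at 154 and 70.8 FPKM in KO and WT. Slc46a3 was the widest gap in the other direction, with 3.10 FPKM in KO against 20.7 FPKM in WT naive cells. Of the 6 markers of large peritoneal macrophages 5 were lower and Timd4 was higher in KO than in WT naive cells, as given above. Also lower in KO naive cells were 6 of 6 B cell, 6 of 7 macrophage and 3 of 4 mast cell markers. Higher there were 4 of 5 neutrophil and 3 of 3 dendritic cell markers, and the remaining 2 lists were evenly split. The part of these cell types in the values was not tested.

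In LPS cells Slc7a7, for the arginine and leucine exchanger y+LAT1, had 10.0 FPKM in KO against 42.7 FPKM in WT, while its levels in the other conditions were 33.3 and 32.9 FPKM in KO and WT tolerized and 18.4 and 21.3 FPKM in KO and WT naive cells. The taurine transporter gene Slc6a6 had 95.8 FPKM in KO against 34.5 FPKM in WT LPS cells, beside 68.5 and 52.5 FPKM in KO and WT tolerized and 114 and 173 FPKM in KO and WT naive cells. In tolerized cells Slc28a2, for a sodium-coupled purine nucleoside carrier, had 80.2 FPKM in KO against 14.3 FPKM in WT. Its other 4 libraries lay between 11.4 and 25.8 FPKM, so that KO tolerized stood alone. Slc13a3, for a sodium-coupled dicarboxylate carrier, had 7.91 FPKM in KO against 3.04 FPKM in WT tolerized cells, above 0.197 to 1.28 FPKM elsewhere, and entered the set through the tolerized libraries alone.

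**Figure D4:**
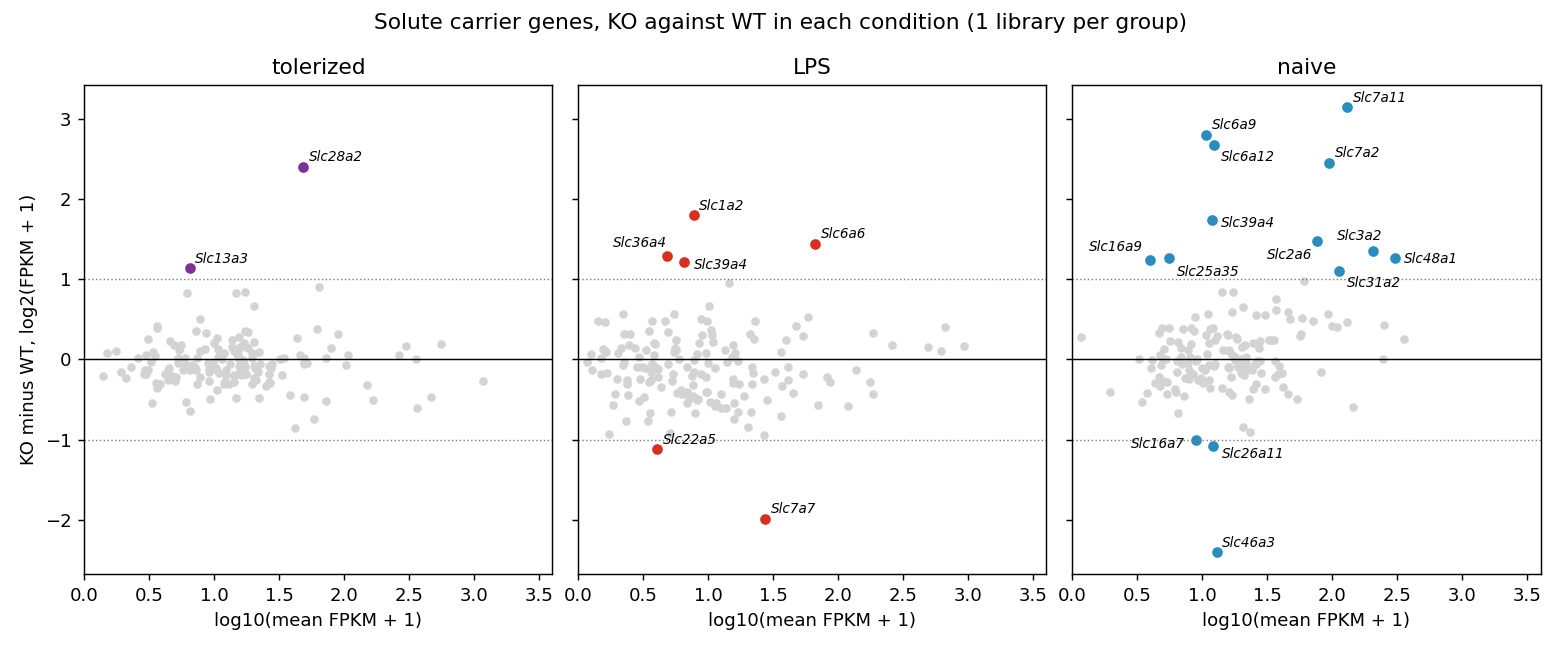
KO minus WT on the log2(FPKM + 1) scale for the 159 solute carrier genes in tolerized, LPS and naive cells, against the log10 of their mean FPKM + 1 in the 2 libraries of that condition; dotted lines mark 2-fold, and coloured, named points lie beyond them. Slc28a2 stands alone in tolerized cells, Slc7a7 is the lowest point in LPS cells, and Slc7a11, Slc6a9, Slc6a12 and Slc7a2 are the highest points in naive cells.

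Transporters and partners without such a symbol, and the 3 carriers set aside, were counted the same way. Of 42 listed, 28 passed the level filter, of which 19 fell and 3 rose in LPS against naive, 9 rose and 1 fell in tolerized against LPS, and 9 fell and 4 rose in tolerized against naive cells. Among all genes tested these shares were 53.9% and 8.66%, 36.1% and 4.27%, and 19.3% and 7.31%. After rescaling, 9 of the 28 fell and 5 rose in LPS against naive, 5 rose and 3 fell in tolerized against LPS, and 5 fell and 4 rose in tolerized against naive cells. The organic anion transporter gene Slco3a1 had 67.7 and 83.6 FPKM in KO and WT tolerized, 73.4 and 56.7 FPKM in KO and WT LPS, and 2.42 and 1.73 FPKM in KO and WT naive cells. It rose by 4.42 ± 0.24 in LPS against naive cells (limma, adjusted p = 0.00042). The mitochondrial carrier gene Ucp2 fell by 2.46 ± 0.27 in tolerized against naive cells (limma, adjusted p = 0.0043), with 46.8 and 54.1 FPKM in KO and WT tolerized and 200 and 395 FPKM in KO and WT naive cells.

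Nearest the level required, Slc18a2, Slc25a23 and Slc46a1 entered with a second-highest library of 2.09, 2.19 and 2.23 FPKM. Slc43a3, Slc9a9 and Slc22a18 stayed out with 1.94, 1.98 and 1.98 FPKM, although Slc9a9 stood at 11.9 FPKM in WT naive cells. Some loci overlap a neighbour, whose reads may be counted for either gene since the use of strand in counting is not stated. The overlap was 87 bases between Slc15a3 and Tmem132a, 29 between Slc48a1 and Hdac7, and 228 between Slc7a7 and Oxa1l, whose own level in LPS cells was 6.74 FPKM in KO against 9.75 FPKM in WT.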

How the data were processed

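RNA of 6 libraries of peritoneal macrophages was poly-A selected, prepared with TruSeq and sequenced on a HiSeq2000, per the labels' protocols and the design text. The submitters' processing notes name bcl2fastq 1.8.4, TopHat, Cufflinks and the build mm9, and the sources used here give no other version and no annotation. The authors deposited FPKM per gene with lower and upper confidence bounds, per the file headers. No read counts are given, so the depth is unknown. From there log2(FPKM + 1) of 10164 genes (at least 2 FPKM in 2 libraries, symbol listed once, status OK) was fitted with limma 3.58.1 in R 4.3.3 (additive genotype and condition, moderated with trend, 2 residual and 4.02 prior degrees of freedom). Tables and figures were made with Python 3.11.15, pandas 2.3.3, numpy 2.4.6 and matplotlib 3.10.9, and the fit was tested on simulated data.

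The genes and lists were chosen with earlier results of these data known. Genes named in the text were drawn from the 10 largest called changes of each direction per condition comparison, the 6 largest genotype differences of each direction, the 6 highest levels, the 6 largest differences between genotypes in a condition change, the 2 highest per family group, those nearest the level filter, and carriers listed for macrophages. Slc2a8, Slc38a7, Slc38a9 and those with a 2-fold gap between genotypes outside this rule were named after their values were seen. Alternatives were a pseudocount of 0.1, rescaling by median of ratios, other level filters, removal of each library, no genotype term and no trend. A few genes of the set are not reported here.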

Additional observations from a re-analysis of the deposited data

Results flagged for a closer look

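In 6 of the genes drawn by the naming rule above, KO and WT moved in opposite directions, by at least 1.5-fold each, between the same conditions. Some of the genes searched had been drawn for a large difference between genotypes in a condition change. The other solute carrier genes and all genes tested were not searched, so the 6 are no share of either. With 1 library per group this difference was not tested, and all values are log2 differences of FPKM + 1. In tolerized against naive cells Slc6a9, the glycine transporter gene, differed by -0.81 in KO and by 1.79 in WT. Slc6a12, the betaine transporter gene, differed by -1.47 in KO and 1.70 in WT, the zinc transporter gene Slc39a4 by -1.33 in KO and 0.62 in WT, and Slc2a6 by -0.62 in KO and 0.83 in WT. In LPS against naive cells Slc6a9 differed by -1.66 in KO and 1.03 in WT, Slc6a12 by -0.85 in KO and 1.52 in WT, the copper transporter gene Slc31a2 by -0.70 in KO and 0.99 in WT, and the arginine and leucine exchanger gene Slc7a7 by -0.82 in KO and 0.97 in WT. All but Slc7a7 were at least 2-fold higher in KO than in WT naive cells, and the same naive libraries enter both comparisons.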

How the results depend on the processing

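No paired analysis was possible because each group is 1 library and the labels give no replicate numbers. Rescaling moved the counts of solute carrier genes as given above, to 20 lower in tolerized against naive, 15 higher and 6 lower in tolerized against LPS, and 29 higher and 50 lower in LPS against naive cells. Without a level filter 6 rose and 12 fell in tolerized against naive, and 33 rose and 1 fell in tolerized against LPS cells. With a pseudocount of 0.1, 7 genes were 2-fold higher and 7 lower in KO against WT LPS cells, beside 4 and 2 as reported. Removing single libraries gave 5 to 17 higher and 17 to 37 lower calls in tolerized against naive, 4 to 73 higher and 0 to 2 lower in tolerized against LPS, 9 to 17 higher and 72 to 93 lower in LPS against naive, and 0 to 1 higher and 0 lower in KO against WT (Slc39a4, without either tolerized library). In LPS against naive cells some differences changed sign. Slc4a2 went from -0.07 to 0.73 after rescaling and was called only then. Rescaling also changed the sign of 11 others among the genes checked for this, with no call in either setting. Slc31a1 went from -0.37 to 0.47, Slc25a3 from -0.44 to 0.41 and Slc25a5 from -0.49 to 0.36. With single libraries removed Slc7a7 ran from -0.88 (without WT LPS) to 1.03, Slc6a9 from -1.64 to 1.01 (without KO naive) and Slc6a12 from -1.05 (without WT naive) to 1.72. Leaving out small RNA symbols, added after seeing the data, moved no count by over 1.5 times. The opposite moves of KO and WT became, after rescaling, for KO and WT in tolerized against naive cells -0.37 and 1.08 (Slc2a6), -1.09 and 0.81 (Slc39a4), -1.22 and 1.84 (Slc6a12) and -0.57 and 1.90 (Slc6a9), and in LPS against naive cells 0.19 and 1.78 (Slc31a2), -0.01 and 2.16 (Slc6a12), -0.86 and 1.61 (Slc6a9) and 0.02 and 1.75 (Slc7a7). Slc31a2 and Slc7a7 then had the same sign in KO and WT, Slc6a12 in LPS cells was near 0 in KO, and the KO values of Slc2a6 and Slc6a9 in tolerized cells were under 1.5-fold. With a pseudocount of 0.1 the WT values were 2.03 for Slc6a12 and 2.24 for Slc6a9 in tolerized cells and 1.83 and 1.36 in LPS cells, and the KO value of Slc6a9 in LPS cells was -1.83. The causes of these changes were not tested. With 1 library per group, a difference within a condition has no replicate check, and low levels rest on few fragments.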
